A study of Mus musculus with 6 samples.

Results

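Retinal ganglion cells (RGCs) are the output neurons of the retina, and their axons form the optic nerve. The genes described here are 10 genes by which RGCs are commonly recognized, namely Rbpms, Rbpms2, Thy1, Sncg, Slc17a6, Nrn1, Tppp3, Uchl1, Opn4 and Pvalb. They were taken by name from the gene symbols of the array. Of the 10 genes, 9 had at least 1 probe set that carried no other symbol, against 18193 such genes on the whole array, and these 9 genes were measured by 14 of 45037 probe sets. The only probe set listed for Rbpms2 also carries the symbol of another gene, so that no value is given for Rbpms2. All 14 probe sets passed the filter on dim signals and were among the 33169 tested.

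The 6 microarrays came from the ganglion cell layer of male C57BL/6J mice, about 6000 cells per eye, cut out by laser from frozen sections. In 3 eyes the optic nerve had been crushed with forceps for 10 sec, at a distance behind the eye that is 1 mm in the labels and 2 mm in the methods, and the eyes were taken 6 hrs later. The 3 control eyes were the uninjured contralateral eyes of the injured animals, so that both groups come from animals with 1 injured nerve. The labels name 1 eye for each array. The main test compares eyes of equal number, and its p values measure the spread of these differences. Only in fits without this pairing do p values measure the spread between eyes within a group. Eyes of equal number are called a pair here, although the labels do not say that they come from 1 animal. The animals' age is not given in the sources used here. The captured layer also holds displaced amacrine cells, astrocytes, microglia, vessels and the processes of Muller cells. In such tissue fewer RGCs and less RNA per RGC cannot be told apart.

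No marker works alike in every RGC. Rbpms encodes an RNA binding protein found in nearly all RGCs and in few other retinal cells, and Slc17a6 encodes VGLUT2, the transporter that loads glutamate into the synaptic vesicles of RGCs. Thy1, a surface glycoprotein used to purify RGCs, Uchl1, a deubiquitinating enzyme of neurons, and Pvalb, a calcium buffer, are also made by other retinal neurons. Opn4 encodes melanopsin, the photopigment of a small class of RGCs that sense light themselves. Several of these genes are known to decline in RGCs in the days after axon injury.

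The arrays of crush eye 2 and crush eye 3 stood apart from the others. They were separated on the first and the next principal component, which held 44.2% and 27.8% of the variance. The array of crush eye 2 gave the lowest of the 6 values for 34.6% of all tested probe sets, and that of crush eye 3 the highest for 29.2%. Ratios of 3′ to 5′ control probe sets, a sign of RNA length after amplification, ranged from 6.65 to 10.5 for beta-actin and from 4.62 to 7.54 for Gapdh. Median intensity ranged from 131.2 to 153.9. For the identity genes, results that rest on either array are given with and without it or its pair. For other single genes no such fit was made.

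At 6 hrs after crush, RGC identity genes were present at high signal in all 6 eyes and did not move together in 1 direction. Taking each gene by its brightest probe set, 5 of 9 were higher after crush on average (45.7% of all genes were) and 4 lower, with a median log2 fold change of 0.01, against -0.02 over the 15103 genes measured. By this probe set Opn4 differed from the other identity genes in that each pair had less of it on the crushed side and its groups did not overlap. Its dimmer probe set showed neither trait. With limma none of the 14 probe sets passed a Benjamini-Hochberg adjusted p under 0.05, nor did any of the 33169 tested, of which 2546 (7.68%) passed an unadjusted p under 0.05. Of the 14 probe sets 2 passed that unadjusted threshold, 1 of Opn4 (lower) and 1 of Rbpms (higher). The share for all tested probe sets was 5.16% for higher and 2.51% for lower. Both also met the thresholds on fold and difference of the study's methods (over 1.2 and over 80). Of all tested probe sets, 3.12% met these thresholds together with an unadjusted p under 0.05 from limma. The methods also asked for a p under 0.05 from their own paired test. With that paired test the unadjusted p was 0.0434 for the Rbpms probe set and 0.0788 for Opn4, so that Opn4 did not meet all the methods' criteria. Without the eyes of pair 3 the number past the unadjusted threshold was 1525 over all probe sets and 0 of 14 for the identity genes, and it was 0 of 14 without those of pair 1. It was 1 of 14 without the pairing block, and 0 of 14 without both the block and the array of crush eye 3. Of the 14 probe sets 1 had groups that did not overlap, against 12.5% of all tested (7.29% with all crush values higher and 5.25% with all lower).

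**Figure D1:**
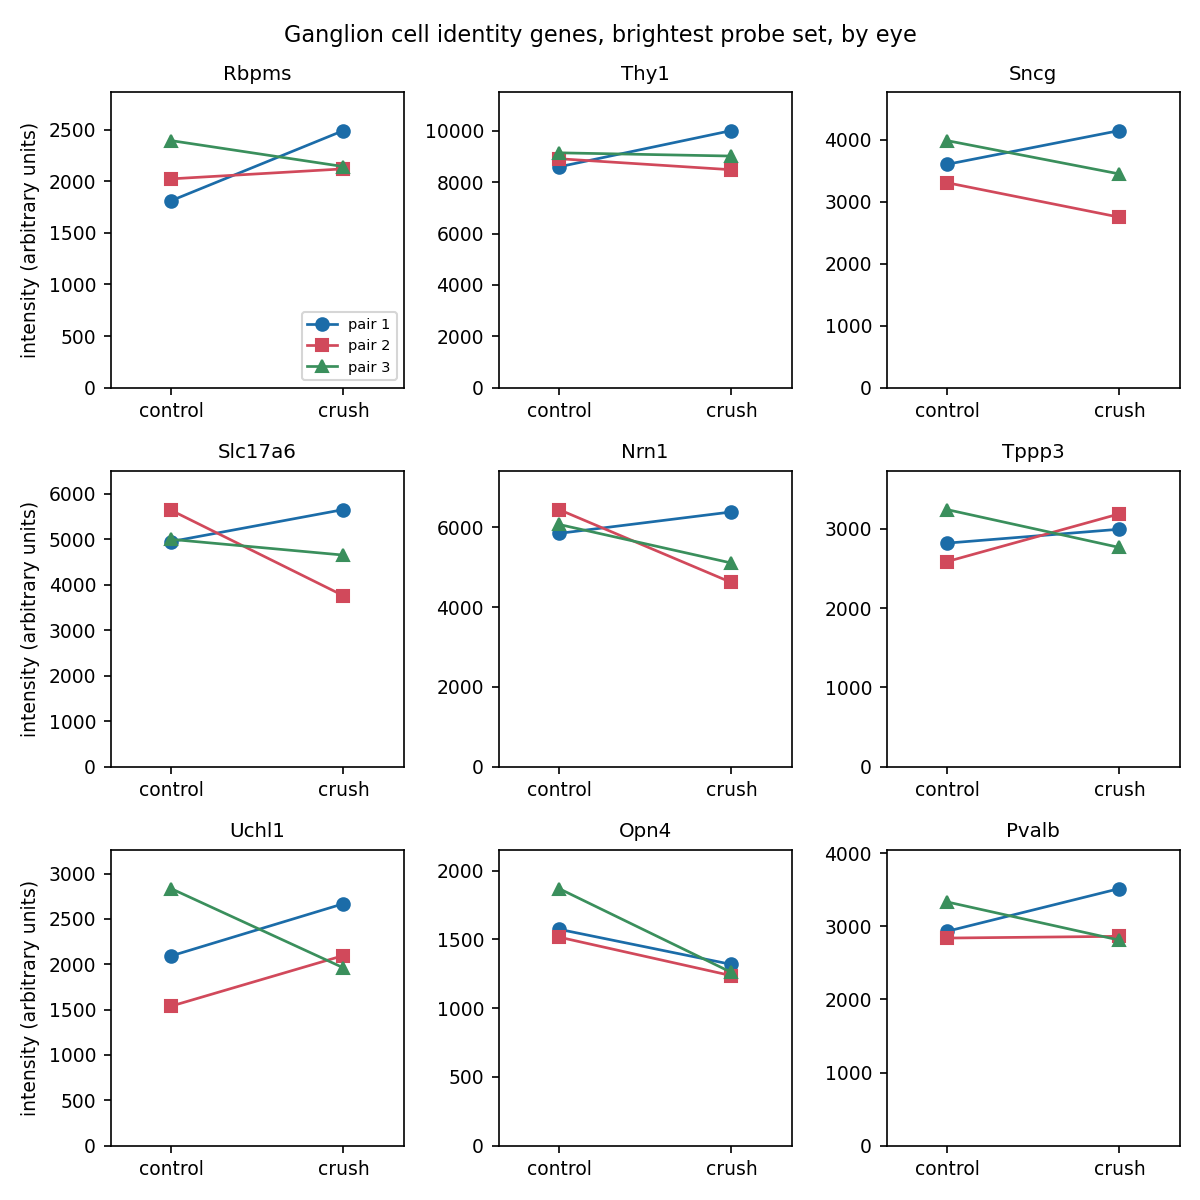
Array intensity (arbitrary units, linear axis from 0) of the brightest probe set of 9 RGC identity genes in uninjured eyes and in those crushed 6 hrs earlier, where each line joins the eyes of a pair. Opn4 is lower after crush in all 3 pairs, while the other 8 genes are higher in pair 1 and lower in pair 3.

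Opn4 had intensities of 1574, 1517 and 1870 in control eyes 1 to 3, and of 1318, 1237 and 1260 in crush eyes 1 to 3. Every crushed eye was thus below every control eye, and the crushed eyes lay close together. The group means were 1654 ± 190 for control eyes and 1272 ± 42.1 for crushed eyes (SD, n = 3), and the log2 fold change was -0.37 with a 95% interval of -0.74 to -0.004 (adjusted p = 0.642 from limma, unadjusted p = 0.0483). Within pairs the crushed eye was lower by 16.2% in pair 1, 18.5% in pair 2 and 32.6% in pair 3. Among all genes 15% were lower in all 3 pairs and 5.32% had every crush value below every control value, and 1 of 9 genes of either kind is near these shares.

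In 6 of 15 alternative settings the unadjusted p of Opn4 was under 0.05 from limma. These 6 changed the block, floor, filter or prior and left the log2 fold change at -0.37. An array left out alone leaves its pair incomplete, so that such fits were made without the pairing block. In these fits the log2 fold change was -0.35 without the array of crush eye 2 (unadjusted p = 0.0535 from limma) and -0.37 without that of crush eye 3 (unadjusted p = 0.0609 from limma), against an unadjusted p of 0.0297 from limma with all arrays and no block. Without both eyes of pair 3 it was -0.28. The direction was kept in all 15 alternatives. With every crush value below every control value, leaving out eyes could not have changed it. Opn4 has another, dimmer probe set with 275, 224 and 155 in control eyes and 253, 189 and 190 in crushed eyes. It was lower after crush in pairs 1 and 2 and higher in pair 3, with a log2 fold change of -0.02 (adjusted p = 0.977 from limma). The 2 probe sets of Opn4 therefore disagreed in pair 3 and in the size of the difference.

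Other genes of the melanopsin cells were examined beside Opn4. The captured layer is mixed, and which of its cells gave the signal of these genes was not tested. In melanopsin cells the photopigment acts through G proteins of the Gq family (Gnaq, Gna11 and Gna14), a phospholipase C (Plcb4) and the channels Trpc6 and Trpc7. Of 8 such genes 4 were higher and 4 lower on average after crush, 0 passed the unadjusted threshold in limma, and 0 had groups that did not overlap. Trpc7 had 1354, 1303 and 1676 in control eyes and 1286, 557 and 1477 in crushed eyes. The log2 fold change was -0.49 (adjusted p = 0.651 from limma), with -0.07, -1.23 and -0.18 in pairs 1 to 3, so that most of it came from the array of crush eye 2. Gna11, 1 of the G proteins, had a log2 fold change of 0.19 and was higher in all 3 pairs. Trpc6 had -0.09 and the exchange factor Rasgrp1 -0.07, both with mixed directions. Adcyap1, which encodes the peptide PACAP of melanopsin cells and was named after its value had been seen, had 0.01 with a 95% interval of -0.37 to 0.39. Eomes, a transcription factor that melanopsin cells need, had 1758, 1845 and 2290 in control eyes and 2639, 2305 and 2022 in crushed eyes. It was higher in pairs 1 and 2, where Opn4 was lower, with a log2 fold change of 0.24 (adjusted p = 0.73 from limma).

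**Figure D2:**
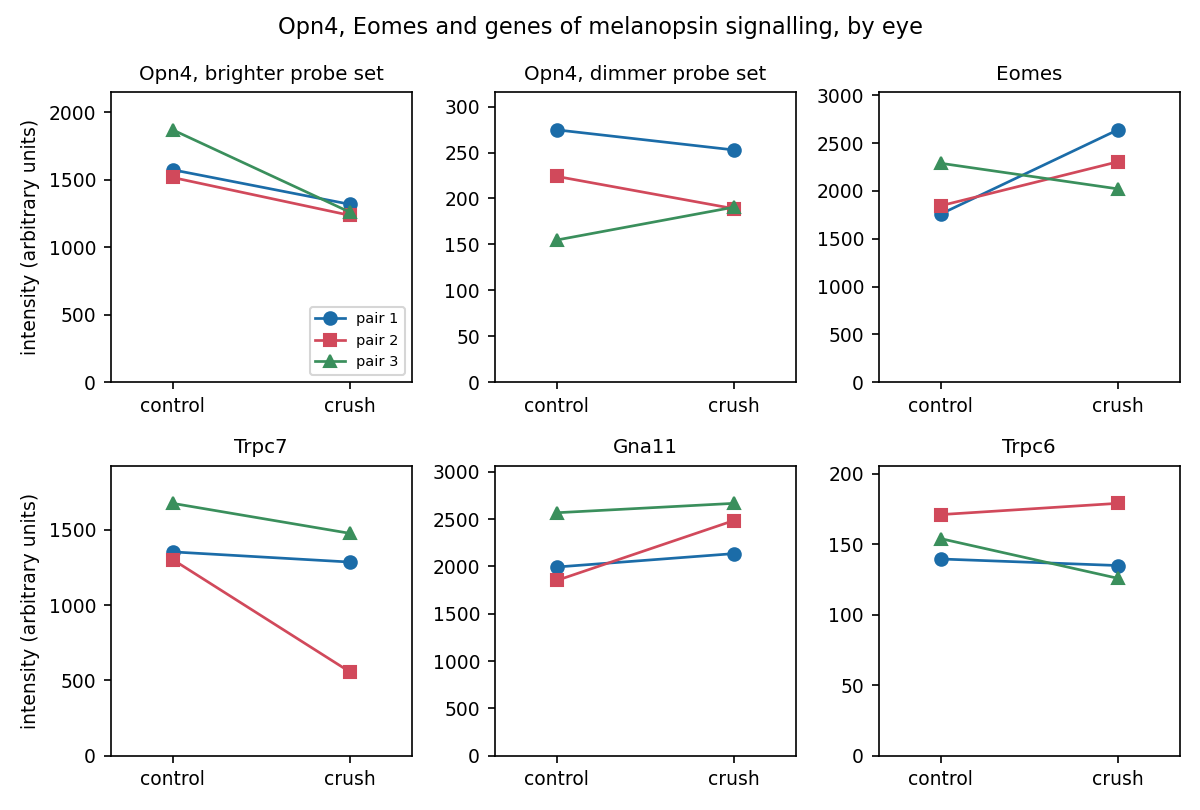
Intensity (arbitrary units, linear axis from 0) of both Opn4 probe sets, of Eomes and of 3 genes of melanopsin signalling, with each line joining the eyes of a pair. The brighter Opn4 probe set is lower after crush in all 3 pairs, the dimmer one in 2 of 3, and Trpc7 differs most in pair 2.

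The stretch in front of the Opn4 start is shown because Opn4 was the gene whose groups separated. It holds the 250 bases before the start in RefSeq, chr14:34600143-34600392 on the minus strand of GRCm38.p6.
Opn4: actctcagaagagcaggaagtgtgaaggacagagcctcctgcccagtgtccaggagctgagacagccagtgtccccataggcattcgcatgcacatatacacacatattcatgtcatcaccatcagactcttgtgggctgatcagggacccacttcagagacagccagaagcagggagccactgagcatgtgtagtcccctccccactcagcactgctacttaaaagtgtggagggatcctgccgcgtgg
Promoter entries were at hand for 6 of the 10 genes (8 entries, for Uchl1, Slc17a6, Rbpms2, Sncg, Opn4 and Pvalb) and were searched on both strands for 3 short motifs. ATTAAT, a core of the sites that POU4F factors bind and a palindrome, was found before Slc17a6 and before Pvalb and not before Opn4, against 4.39% of all 32851 promoters. Neither GGTGTGA, part of the site of T-box factors such as Eomes, nor TATAAA, the TATA box, was found before any of the 6 genes, against 3.33% and 12.4% of all promoters. The ATTAAT matches are shown in capitals within 60 bases, since POU4F factors are the classic regulators of RGC genes, and a match is a description of letters and not a site.
Slc17a6 (chr7:51624527-51624586, plus strand): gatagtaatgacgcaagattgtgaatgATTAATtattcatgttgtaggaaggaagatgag
Pvalb (chr15:78206546-78206605, minus strand): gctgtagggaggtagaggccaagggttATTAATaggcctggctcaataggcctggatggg

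Rbpms was measured by 4 probe sets. Its brightest probe set had 1811, 2023 and 2393 in control eyes and 2490, 2119 and 2142 in crushed eyes, so that the groups overlapped. The log2 fold change was 0.12 with a 95% interval of -0.32 to 0.56 (adjusted p = 0.847 from limma), higher by 37.6% in pair 1 and lower by 10.5% in pair 3. The probe set past the unadjusted threshold had 534, 424 and 646 in control eyes and 724, 519 and 856 in crushed eyes. It was higher in all 3 pairs, as were 17.6% of all tested, with a log2 fold change of 0.38 (adjusted p = 0.642 from limma, unadjusted p = 0.0361), although its groups overlapped. Without the pairing block its unadjusted p was 0.156 from limma, and without both the block and the array of crush eye 3 its log2 fold change was 0.22 (unadjusted p = 0.402 from limma). The remaining 2 probe sets, which share an accession, had log2 fold changes of 0.07 and 0.19, and both were lower in pair 2. All 4 probe sets of Rbpms were thus above 0 on average, in different pairs, and only in pair 1 were all 4 higher.

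Slc17a6 was measured by 2 probe sets that differed in direction. The brighter one had 4945, 5634 and 4994 in control eyes and 5648, 3755 and 4648 in crushed eyes. Its lowest value was on the array of crush eye 2, and its log2 fold change was -0.17 (95% interval -0.65 to 0.32, adjusted p = 0.81 from limma), or 0.04 without both eyes of pair 2. The other probe set had 2032, 1657 and 2395 in control eyes and 2750, 2083 and 2322 in crushed eyes, a log2 fold change of 0.24 (adjusted p = 0.693 from limma). In pair 2 the former was lower by 33.3% and the latter higher by 25.7%. A direction for Slc17a6 therefore depended on the probe set.

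Thy1 had the steadiest signal of the 9 genes. Its intensities were 8602, 8917 and 9148 in control eyes and 10014, 8489 and 9021 in crushed eyes. The coefficient of variation among control eyes was 3.08%, against up to 30.2% for Uchl1. The log2 fold change of Thy1 was 0.04 with a 95% interval of -0.32 to 0.41 (adjusted p = 0.946 from limma), and differences within that interval were not excluded by these arrays.

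Sncg, which encodes the gamma-synuclein of RGC somas and axons, had 3606, 3310 and 3990 in control eyes and 4152, 2753 and 3451 in crushed eyes. It was higher in pair 1 and lower in pairs 2 and 3, with a log2 fold change of -0.09 (95% interval -0.50 to 0.32, adjusted p = 0.882 from limma). Nrn1, which encodes neuritin, a membrane-anchored protein that promotes neurite growth and survival, had 5849, 6446 and 6073 in control eyes and 6387, 4618 and 5106 in crushed eyes. Here too the crushed eye was higher in pair 1 and lower in the other pairs. Nrn1 had, after Opn4, the lowest log2 fold change of the 9 brightest probe sets, -0.20 (95% interval -0.64 to 0.23, adjusted p = 0.743 from limma), which was -0.06 without both eyes of pair 2. Sncg and Nrn1 showed the same order of pairs, and in both the array of crush eye 2 held the lowest value. Thy1 and the brighter Slc17a6 probe set shared both traits, and crush eye 2 was lowest for 5 of the 9 brightest probe sets.

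Tppp3, a protein that promotes tubulin polymerization, had 2818, 2585 and 3242 in control eyes and 2994, 3188 and 2764 in crushed eyes. Uchl1 had 2092, 1538 and 2835 in control eyes and 2668, 2096 and 1961 in crushed eyes. Both were higher in pairs 1 and 2 and lower in pair 3, with log2 fold changes of 0.05 (adjusted p = 0.939 from limma) and 0.09 (adjusted p = 0.929 from limma). Uchl1 varied most over the 6 arrays, with a range of 0.88 on the log2 scale, and without both eyes of pair 3 its log2 fold change was 0.40 (unadjusted p = 0.0975 from limma). The 5 genes whose profile over the 6 arrays lay closest to that of Uchl1, among 15102 others, were Mrpl12, Scnm1, Lgals1, Capn12 and Sars, at a root mean square distance of 0.09 to 0.10 on the log2 scale, none of them an RGC identity gene. Pvalb had 2931, 2839 and 3333 in control eyes and 3515, 2862 and 2810 in crushed eyes, with a log2 fold change of 0.01 (95% interval -0.40 to 0.42, adjusted p = 0.991 from limma). Over the brightest probe sets the 95% interval reached from 0.36 to 0.59 on the log2 scale to either side of the fold change.

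**Figure D3:**
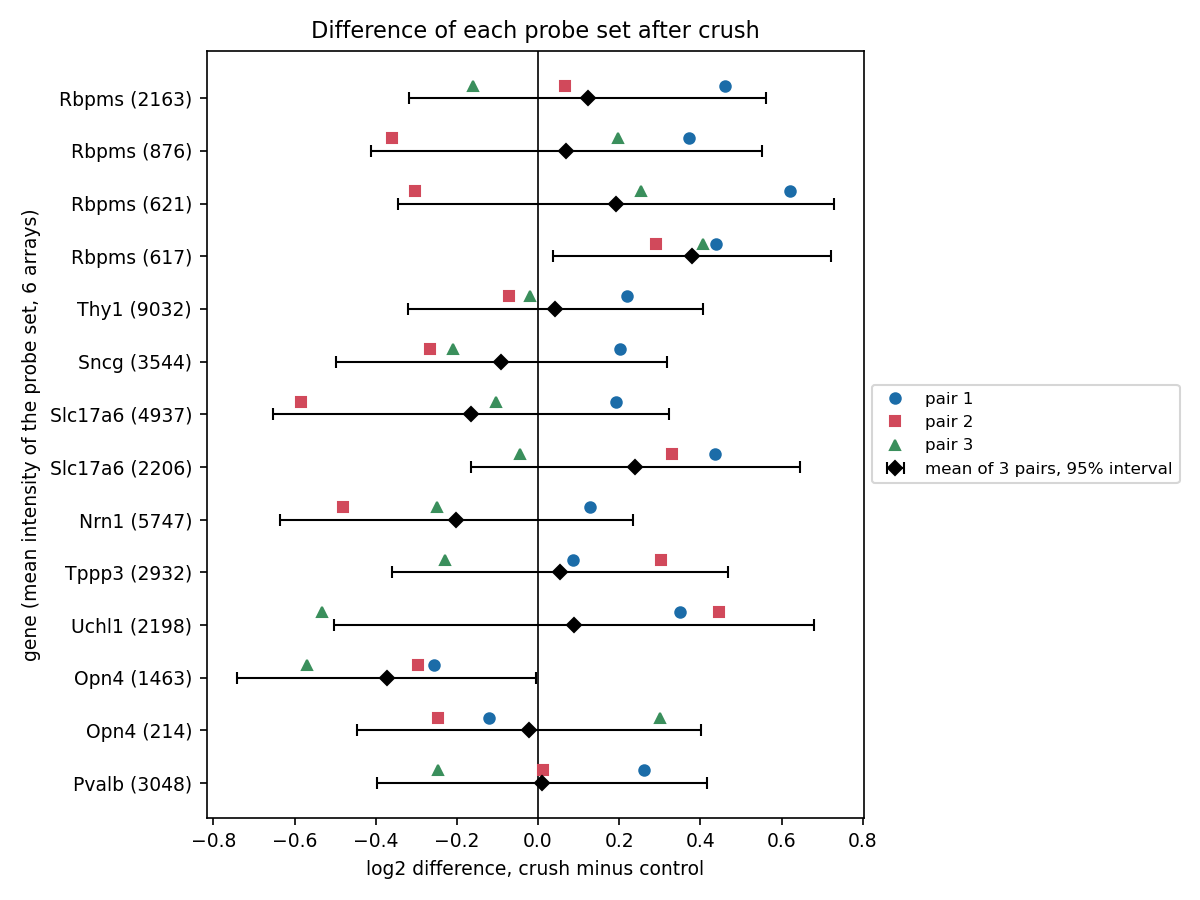
Log2 difference between crushed and control eye for the 14 probe sets of 9 RGC identity genes, with the mean intensity of each probe set in parentheses. Diamonds and bars are the mean of 3 pairs and its 95% interval from limma, and symbols above them are the pairs. Pair 1 is above 0 for 12 of 14 probe sets and pair 3 below 0 for 10 of 14.

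The identity genes shared a pattern across pairs rather than across groups. Each pair is 1 crush array against 1 control array, and the genes are not replicates of it. The summed intensities of the 9 genes were 34227, 34810 and 37878 in control eyes 1 to 3. In crush eyes 1 to 3 they were 39187, 31117 and 33163. Crush eye 1 thus had the highest sum, and control eye 3 the highest among control eyes, so that a difference within a pair can rest on the level of either array. In pair 1, 8 of 9 genes were higher in the crushed eye, against 53.1% of all genes, and Opn4 was lower, as were 46.9%. In pair 3 all 9 were lower, against 42.8% of all genes. Thus 8 of 9 were higher in pair 1 and lower in pair 3, against 22.3% of all genes. This holds for the brightest probe sets. Of all 14 probe sets, 12 were higher in pair 1 and 10 lower in pair 3, where 40.6% of all tested were lower. The dimmer probe sets of Rbpms were higher in pair 3, by 0.20 to 0.41 on the log2 scale, and that of Opn4 by 0.30. In pair 2, 5 of 9 were lower, against 61.1%. Over the 9 genes the log2 differences had medians of 0.20, -0.07 and -0.23 in pairs 1 to 3, where those of all genes were 0.01, -0.10 and 0.04. The array of crush eye 1 held the highest value for 8 of the 14 probe sets, against 14.3% of all tested. That of crush eye 2 held the lowest for 7 of 14, against 34.6% of all tested. After quantile normalization, and likewise after scaling all arrays to 1 median, 1 of 9 genes was lower in pair 1 and 9 of 9 in pair 3, as before, while in pair 2 the number lower was 4 and not 5, so that the majority in pair 2 depended on the scaling.

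Other RGC genes were placed beside them from lists chosen with earlier results of these data known. Of 12 measured RGC transcription factors 6 were higher and 6 lower on average, 0 passed the unadjusted threshold in limma (5.03% of all genes did, 2.76% higher and 2.27% lower), and the median log2 fold change was 0.00. All 12 were higher in pair 1, 10 of 12 were lower in pair 2 and 8 of 12 in pair 3. Tbx20, found in subsets of RGCs, had a log2 fold change of 0.44 (95% interval -0.22 to 1.10), mostly from a difference of 1.14 in pair 1. Ebf1 had -0.75, which came from 1 array, with 3778, 3537 and 673 in crush eyes 1 to 3 against 3341 to 3590 in controls, and with log2 differences of 0.07 and -0.01 in pairs 1 and 2. Pou4f3, a POU4F factor, was dim, with 54 to 60.2 in control eyes and 25.8 to 72.1 in crushed eyes, and a log2 fold change of -0.44. Of 16 other measured RGC genes 4 were higher and 12 lower, with a median of -0.07 and 0 past an unadjusted p under 0.05. In this list 14 of 16 were higher in pair 1 and 13 of 16 lower in pair 2, while in pair 3 7 of 16 were lower with a median of 0.01. Mmp17, a matrix metalloproteinase, was higher in all 3 pairs, with 155 to 179 in control eyes and 181 to 226 in crushed eyes that did not overlap (5.69% of all genes were so placed), and a log2 fold change of 0.30 (adjusted p = 0.642 from limma). Kcng4, a modifier subunit of potassium channels known from alpha RGCs, was lower in all 3 pairs, with -0.26 (adjusted p = 0.698 from limma). Tubb3, a neuronal tubulin, and Gap43, a growth cone protein, had 0.31 and 0.23, and both were higher in pairs 1 and 2 and lower in pair 3, as Tppp3 and Uchl1 were.

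Relatives of the identity genes by sequence family were also measured where the array allowed. Of 7 such genes 2 were higher and 5 lower on average, none (0 of 7) passed the unadjusted threshold in limma, and all 7 were lower in pair 2, as were 61.1% of all genes. Nrn1l, the relative of Nrn1, had 118, 129 and 128 in control eyes and 94.3, 105 and 118 in crushed eyes. Its groups did not overlap, at a log2 fold change of -0.25 (adjusted p = 0.663 from limma), and 5.32% of all genes had every crush value below every control value. Uchl5, a deubiquitinating enzyme like Uchl1, had -0.18, Calb1, a calcium buffer like Pvalb, had -0.11, and Tppp, the relative of Tppp3, had 0.10.

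Transcripts of other cell types moved with the pairs as well. Rod genes had a median log2 difference of -0.21 in pair 1, 0.18 in pair 2 and 0.74 in pair 3, with 12 of 12 lower in pair 1 and 12 of 12 higher in pair 3. Cone genes had -0.25, 0.09 and 0.96. These lists thus ran opposite to the identity genes in pairs 1 and 3. The summed intensity of the 12 rod genes was 79121, 58993 and 46376 in control eyes 1 to 3. In crush eyes 1 to 3 it was 71868, 64274 and 73751, and no rod gene had a value under the floor of 16. Cone genes had sums of 13576, 10061 and 6112 in control eyes and 11087, 9370 and 12676 in crushed eyes. Control eye 3 thus had the lowest sum of all eyes in both lists, and the difference in pair 3 rests largely on that array. Muller cell genes were lower in all pairs, with medians of -0.31, -0.12 and -0.13 over 14 genes and summed intensities of 51401 to 57672 in controls and 48510 to 51755 after crush. Bipolar cell genes had medians of -0.24, -0.47 and -0.10 over 10 genes and sums of 15537 to 19002 and 12752 to 14553. Amacrine cell genes, which the captured layer holds beside RGCs, had medians of -0.06, -0.35 and -0.06 over 16 genes and sums of 42416 to 48550 and 37960 to 41879. Of the 16 amacrine genes 0 were nominally higher and 1 nominally lower, of the 14 Muller genes 0 and 1, and of the 10 bipolar genes 0 and 4 by an unadjusted p under 0.05 from limma. Every crush value lay below every control value, as for Opn4, in 3 amacrine, 4 Muller and 4 bipolar genes, against 5.32% of all genes. In these lists 0 genes had every crush value above every control value. Microglial genes had medians of 0.01, 0.48 and -0.20 over 9 genes, astrocyte genes 0.03, 0.18 and -0.01 over 6, vascular genes -0.13, 0.18 and -0.06 over 11, horizontal cell genes -0.26, 0.06 and 0.00 over 7, and pigment epithelium genes 0.42, 0.31 and 0.34 over 9. Nominally higher by the same threshold were 1 cone, 2 astrocyte and 4 pigment epithelium genes, and 1 microglial and 1 pigment epithelium gene were nominally lower. The summed intensity of the pigment epithelium genes was 1742 to 2392 in control eyes and 3036 to 9921 in crushed eyes, highest on the array of crush eye 3. The part of these cells in the values of the identity genes was not tested.

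**Figure D4:**
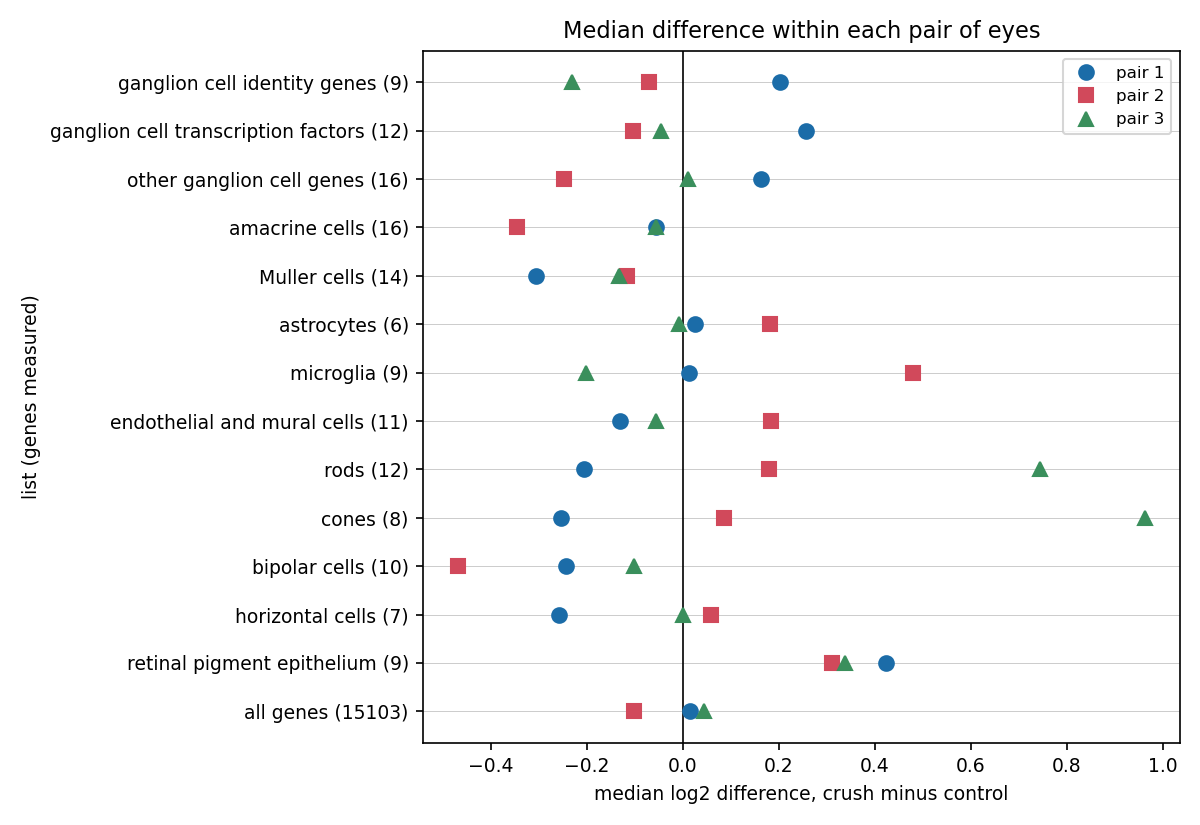
Median log2 difference within each pair, crushed minus control, for the RGC identity genes, other lists and all genes, with the number of genes measured in parentheses. RGC lists have their highest median in pair 1, and rods and cones their lowest in pair 1 and highest in pair 3.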

How the data were processed

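Gene expression was measured on Affymetrix Mu430 v2.0 arrays, 1 per eye, after linear amplification of the RNA. The deposited values are linear intensities, which the authors obtained from dChip after normalizing arrays by an invariant set and modelling PM and MM probes. Precision is limited by the number of arrays. Of 45101 probe sets, 64 Affymetrix controls were left out. Probe sets were joined to symbols by identifier through the platform's annotation, of which 34945 had 1 symbol and 932 had several, while 9160 were not listed there. Promoter sequences are from RefSeq on GRCm38.p6.

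A floor of 16 was applied before the log2. The test was limma 3.58.1 in R 4.3.3, with empirical Bayes moderation and eye number as a block, on probe sets whose mean over 6 arrays reached 40, and Benjamini-Hochberg adjustment covered all of them. The block follows the methods' paired test and the contralateral controls. Deviations from the group means correlated between eyes of the same number with r of 0.154, 0.125 and 0.297 over all probe sets. Between eyes of different number r ranged from -0.264 to 0.131, the highest for control eye 2 with crush eye 1, which exceeded that of control eye 2 with crush eye 2. Over the 14 probe sets of the identity genes r was 0.184, -0.202 and 0.121 for eyes of the same number. For eyes of different number it ranged there from -0.38 to 0.343, so that the pairing was not borne out in these genes. For lists the brightest probe set per gene was used, which gave 15103 genes. All identity genes were named, and from each RGC list and the lists of melanopsin signalling and of relatives the up to 4 genes with the smallest p. Members and lists were chosen with earlier results of these data known. The calculation was tested on simulated data. Alternatives covered the block, floor, filter, scaling, prior, test, arrays and way of combining probe sets.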

Additional observations from a re-analysis of the deposited data

How the results depend on the processing

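The count of probe sets past an adjusted p under 0.05 was 0 under the alternatives run, except when limma's prior followed intensity and was robust, where it was 1, and the identity genes were not in it (lowest adjusted p of 0.54 over the alternatives). The count past an unadjusted p under 0.05 was 1671 with the methods' t-test and ranged from 1525 to 2712 when eyes were left out, and the share of these that were higher, 67.3% in all, ranged from 42.6% without both the array of crush eye 3 and the block to 71.1%. Of the identity genes' probe sets 2 passed the unadjusted threshold. The count was 1 without the replicate block, 0 after quantile normalization, 1 with arrays scaled to 1 median, 1 with the methods' t-test and 0 to 2 when eyes were left out (0 without pair 1, without pair 3, or without both crush eye 3 and the block). The cause was not tested.

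With a pair left out the log2 fold change ranged from -0.046 to 0.26 for Rbpms, from -0.046 to 0.10 for Thy1, from -0.34 to 0.044 for Slc17a6, from -0.072 to 0.20 for Tppp3, from -0.091 to 0.40 for Uchl1 (-0.043 without pair 1 and -0.091 without pair 2) and from -0.12 to 0.14 for Pvalb, so that these 6 genes took both signs. That of Sncg was 0.063 without both the array of crush eye 2 and the block and ranged down to -0.24. With the mean of both probe sets Slc17a6 had 0.037. Nrn1 and Opn4 kept their sign under the alternatives run, although for Opn4, whose groups did not overlap, leaving out eyes could not change it. Opn4 had -0.43 to -0.28 when eyes were left out and -0.20 as the mean of both probe sets (unadjusted p = 0.167 from limma), and after quantile normalization its unadjusted p was 0.0517. Among the probe sets of the identity genes, leaving out the pairing block changed no call by unadjusted p but that of Rbpms. Over all probe sets the count went from 2546 to 2082. The count of genes with separate groups stayed at 1 after both scalings. The counts by pair after scaling and the alternatives for the dimmer Rbpms probe set were added after seeing the data.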
